A study of Mus musculus with 2 samples.

Results

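The Ikaros family genes of the mouse, Ikzf1 to Ikzf5, are described here by the open chromatin of their loci in regulatory T cells. A peak was counted for a gene when its summit lay in the gene body of the GENCODE M21 annotation or within 20 kb on either side. All 5 genes were found, and their loci held 51 of the 34610 peaks in the main list, which keeps peaks under a limit on the irreproducible discovery rate (IDR), an estimate of the share of peaks whose rank would not repeat. A longer deposited list, called the pseudoreplicated list, held 96 of 58871 peaks in the same loci. The rule used names and positions, not measured values.

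Open chromatin was measured by ATAC-seq, in which the transposase Tn5 cuts and tags accessible DNA. The cells were primary regulatory T cells of the strain Foxp3CreERT2 x Rosa26YFP, in which a tamoxifen-inducible Cre is driven from Foxp3 and a fluorescent reporter sits at Rosa26, from a male adult of 4 months. Per the labels they originated from a hematopoietic cell of the bone marrow. The labels name no treatment. There were 2 libraries, both made from 1 biological replicate as technical replicates and pooled in every peak list, so there is 1 sample, no spread between animals and no comparison between groups.

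Ikaros family proteins are zinc-finger transcription factors. Fingers near the N-terminus bind DNA that holds a GGGAA core, and fingers at the C-terminus join family members into dimers. Ikaros (Ikzf1) and Aiolos (Ikzf3) direct lymphocyte development and recruit corepressors such as the NuRD complex, Helios (Ikzf2) and Eos (Ikzf4) are known for their roles in regulatory T cells, where Eos acts with Foxp3 in gene silencing, and Pegasus (Ikzf5) is the most divergent member and prefers another DNA sequence.

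The sequences at the centre of the results came from mm10 (GRCm38.p6) and are written 5′ to 3′ on the plus strand. The first 5 are the 200 bases around the summits of distal peaks, that is peaks whose summit lay more than 1 kb from every annotated transcription start site (TSS). For Ikzf1, Ikzf2, Ikzf3 and Ikzf4 the distal peak of highest signal inside the gene is shown, and for Ikzf2 also the upstream peak of highest signal. These sites were chosen because they had far higher signals than the start sites of the same genes. By the significance of the peak (−log10 p, described further on) the upstream Ikzf2 site, at 53.7, was below the peak over the Ikzf2 5′ end, at 87.5. Capitals mark matches to the motifs given further on. They lie at chr11:11766218-11766417 (Ikzf1, intron 7), chr1:69544289-69544488 (Ikzf2, intron 6), chr1:69703607-69703806 (upstream of Ikzf2), chr11:98470288-98470487 (Ikzf3, intron 7) and chr10:128637122-128637321 (Ikzf4, intron 5).
Ikzf1 intron 7: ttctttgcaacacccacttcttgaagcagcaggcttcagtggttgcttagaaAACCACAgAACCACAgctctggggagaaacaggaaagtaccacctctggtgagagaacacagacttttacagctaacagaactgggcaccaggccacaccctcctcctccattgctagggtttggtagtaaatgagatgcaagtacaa
Ikzf2 intron 6: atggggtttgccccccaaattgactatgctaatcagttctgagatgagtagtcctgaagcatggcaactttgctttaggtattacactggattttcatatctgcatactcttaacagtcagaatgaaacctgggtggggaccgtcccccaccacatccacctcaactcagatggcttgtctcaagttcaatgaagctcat
Ikzf2 upstream: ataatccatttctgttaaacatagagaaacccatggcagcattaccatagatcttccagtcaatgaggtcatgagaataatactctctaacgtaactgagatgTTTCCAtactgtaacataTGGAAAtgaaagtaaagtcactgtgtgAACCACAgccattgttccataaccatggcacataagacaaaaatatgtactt
Ikzf3 intron 7: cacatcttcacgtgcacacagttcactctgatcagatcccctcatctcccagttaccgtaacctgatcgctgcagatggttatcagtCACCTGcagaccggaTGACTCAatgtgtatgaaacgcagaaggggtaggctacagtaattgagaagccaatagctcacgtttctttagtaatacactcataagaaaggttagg
Ikzf4 intron 5: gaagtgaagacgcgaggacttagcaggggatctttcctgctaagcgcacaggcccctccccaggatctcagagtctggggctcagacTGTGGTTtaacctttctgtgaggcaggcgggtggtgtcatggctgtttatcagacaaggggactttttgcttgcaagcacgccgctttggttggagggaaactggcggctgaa

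In the Ikzf1 sequence a RUNX match (AACCACA, the reverse complement of TGTGGTT) starts at base 53 and is repeated at base 61. The Ikzf2 intron 6 sequence held none of the 14 motifs searched. The upstream Ikzf2 sequence held NFAT matches at bases 104 and 122 and a RUNX match at base 149. In Ikzf3 an E-box (CACCTG) at base 88 was followed by an AP-1 match (TGACTCA) at base 103, and in Ikzf4 a RUNX match started at base 88. A match describes the letters and is not evidence of binding.

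Start-site sequences are shown for Ikzf1 and Ikzf5, whose peaks had the lowest and the highest signal over a principal TSS in the main list. RefSeq promoter entries for GRCm38.p6 matched 2 of the 5 members. Ikzf1 has 2 RefSeq starts, and the 250 bases before each lie at chr11:11685675-11685924 and chr11:11689927-11690176. The 79 bases between the annotated starts of Ikzf5 and its divergent neighbour Acadsb lie at chr7:131410522-131410600 and are given from mm10 on the plus strand. Capitals here mark CpG dinucleotides, the sites of DNA methylation, which are dense in CpG island promoters.
Ikzf1 first RefSeq start: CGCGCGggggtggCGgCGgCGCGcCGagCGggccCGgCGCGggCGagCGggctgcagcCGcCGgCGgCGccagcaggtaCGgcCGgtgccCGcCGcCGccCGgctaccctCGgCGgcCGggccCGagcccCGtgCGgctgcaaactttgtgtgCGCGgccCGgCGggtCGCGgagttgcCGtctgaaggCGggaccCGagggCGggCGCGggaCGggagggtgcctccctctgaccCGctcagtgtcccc
Ikzf1 second RefSeq start: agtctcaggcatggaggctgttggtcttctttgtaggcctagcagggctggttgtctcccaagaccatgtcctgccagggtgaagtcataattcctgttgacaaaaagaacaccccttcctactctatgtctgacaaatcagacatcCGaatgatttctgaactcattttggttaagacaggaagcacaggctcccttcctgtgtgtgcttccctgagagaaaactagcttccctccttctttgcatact
Ikzf5 to Acadsb: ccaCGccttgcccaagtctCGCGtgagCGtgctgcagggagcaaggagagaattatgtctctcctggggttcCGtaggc

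The first Ikzf1 window was 82% G or C and held 44 CpG, against a median of 6 over the 32851 promoter entries. The second was 47.6% G or C and held 1 CpG. Neither Ikzf1 window held any of the 14 motifs.

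The label of the cells was checked on marker genes. Promoter peaks, that is peaks within 1 kb of any TSS of a gene, were present at 8 of 8 T cell and regulatory T cell genes. Their signals ran from 2.69 (Tnfrsf18) to 17.2 (Cd3g), with Foxp3 at 9.50 and Cd4 at 4.56. The share over all coding genes was 52.6%. Promoter peaks were also present at 2 of 6 B cell genes (Pax5, 18.6, and Cr2, 23.7) and 1 of 4 myeloid genes (Cd14, 10.2). The same held for 2 of 4 erythroid genes (Klf1, 17.4, and Gata1, 14.5) and 1 of 4 genes of cytotoxic T or NK cells (Cd8b1, 10.7). A peak covered the principal TSS at 6 of the 8 T cell genes, not at Foxp3 and Tnfrsf18, against 45.8% of coding genes. It did so at 1 of 6 B cell (Cr2), 0 of 4 myeloid, 0 of 4 erythroid and 1 of 4 cytotoxic T or NK cell genes (Cd8b1). Signals of the promoter peaks at markers of other cells were thus within or above the range of the T cell genes. What they have to do with other cells in the pool was not tested. A pooled profile cannot tell a site open in few cells from one weakly open in many, which holds for each value that follows. The signal is the authors' enrichment value per peak and the −log10 p is the caller's own measure of significance. Over all peaks of the main list the medians were 13.2 for signal and 115 for −log10 p.

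All family loci but that of Ikzf5 were rich in peaks. Ikzf2 had 18 peaks, Ikzf1 had 14, Ikzf3 had 11, Ikzf4 had 6 and Ikzf5 had 2, while the median protein-coding gene had 2. Among 21938 protein-coding genes these counts stood at percentiles 99.8, 99.4, 98.7, 91.5 and 53.5, with tied genes counted at their midpoint. At least as many peaks as at Ikzf2 were found at 48 coding genes, Ikzf2 itself included, and at least as many as at Ikzf1 at 149. Some of this order follows locus length, since the Ikzf2 locus spans 196 kb and the median coding locus 57.4 kb. Per 100 kb of locus, Ikzf1 had 10.9 peaks, Ikzf4 10.9, Ikzf2 9.18, Ikzf3 9.08 and Ikzf5 3.23, against a median of 2.34, which placed Ikzf1 to Ikzf4 between percentiles 91.4 and 95.2 and Ikzf5 at 57.7. The counts carry no replicate error, so whether neighbours in this order differ was not tested.

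**Figure D1:**
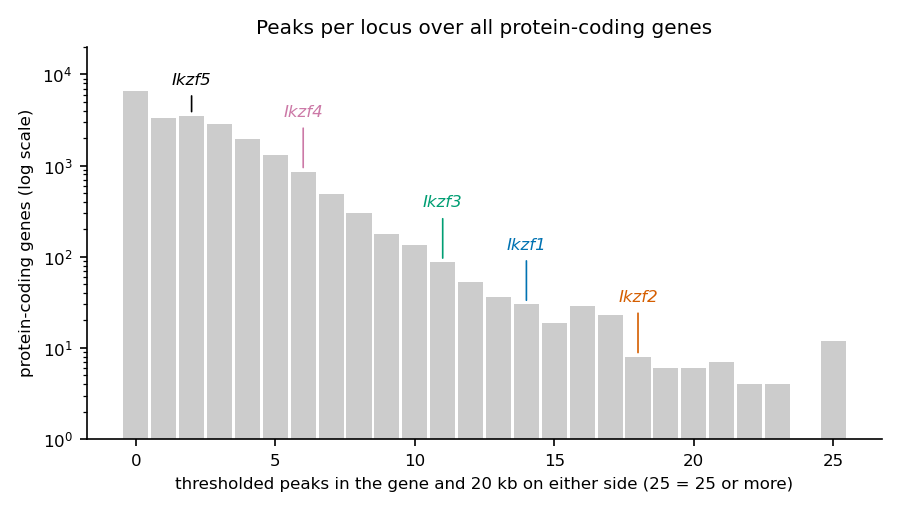
Number of peaks of the main list per locus (gene and 20 kb on either side, x axis) for 21938 protein-coding genes (y axis, log scale), with the 5 family genes marked. Ikzf5 with 2 peaks sits at the median of coding genes, and Ikzf3, Ikzf1 and Ikzf2 with 11, 14 and 18 sit in the sparse upper tail.

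The peaks were numerous but mostly weak against the whole list. Promoter peaks made up 39.6% of that list and 23.5% of the family peaks, and the comparison does not allow for this. The median signal over the 51 family peaks was 7.77 and the median −log10 p was 87.5, and 35 of the 51 lay below the list's median signal and 33 below its median −log10 p. By gene, the median signal was 5.68 at Ikzf2 (range 3.90 to 15.7), 7.79 at Ikzf1 (3.63 to 19.9), 11.99 at Ikzf4 (6.89 to 25.5), 12.5 at Ikzf3 (7.12 to 18.1) and 20.4 at Ikzf5 (17.7 to 23.1). The order by signal was thus led by Ikzf5, the locus with fewest peaks, and closed by Ikzf2, the locus with most. Among 15311 coding loci with a peak, the median signal of Ikzf2 stood at percentile 0.598 and that of Ikzf1 at 4.06, and by median −log10 p they stood at 15.2 and 29.7. By median −log10 p Ikzf3 and Ikzf4 stood at percentiles 21.7 and 24.96, both below Ikzf1, although their median signals were higher. The order of Ikzf1, Ikzf3 and Ikzf4 thus depended on the measure, while Ikzf5 was highest and Ikzf2 lowest by both. Neither order allows for the kind of peak. Both Ikzf5 peaks lay within 1 kb of another gene's start, while 15 of the 18 Ikzf2 peaks were distal. With only peaks at or above the list's median −log10 p, Ikzf2 kept 2 peaks and stood at percentile 72.04, while Ikzf1 with 6 stood at 98.89.

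Over the whole list signal and −log10 p were lower where peaks were crowded, but among distal peaks −log10 p was lowest where no other peak was near. Peaks with no other pseudoreplicated peak within 20 kb had a median signal of 17.3, those with 3 to 5 had 12.4, and those with 10 or more had 6.61. The median −log10 p over the same peaks was 132, 113 and 86.3. Over distal peaks alone, which are 39 of the 51 family peaks, the median signal was 14.9, 11.8 and 6.50 but the median −log10 p was 70.4, 88.0 and 78.0, and it was highest, at 93.2, with 6 to 9 neighbours. Family peaks had a median of 8 such neighbours at Ikzf2, 7 at Ikzf1, 5 at Ikzf3 and at Ikzf4, and 0.5 at Ikzf5. What part crowding has in the low signal of Ikzf1 and Ikzf2 was not tested. Among the 458 coding loci with at least 10 peaks, where the median of the loci's median signals was 10.2, Ikzf2 stood at percentile 2.07, Ikzf1 at 15.2 and Ikzf3 at 79.6.

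**Figure D2:**
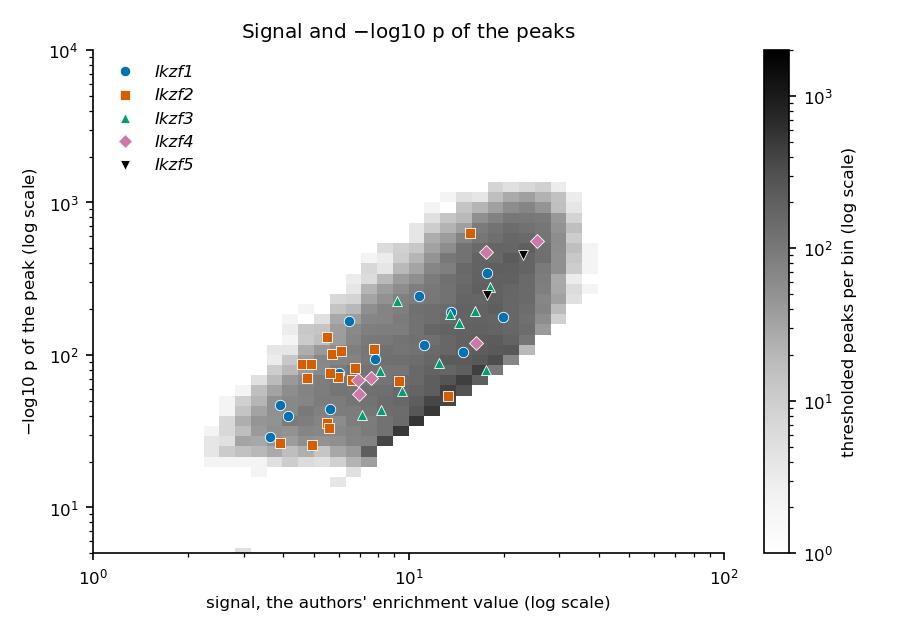
Signal (x axis, log scale) and −log10 p (y axis, log scale) of each family peak, drawn over the density of all 34610 peaks of the main list in grey. Of the 18 Ikzf2 peaks, 16 sit below the list's median signal of 13.2, and the others are the intron 6 peak, at a −log10 p of 627, and the upstream peak, at 53.7. Both Ikzf5 peaks sit at the strong end.

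Helios, encoded by Ikzf2 (chr1:69531214-69687245, minus strand), had its 2 peaks of highest signal far from its start. The peak in intron 6 (chr1:69544000-69544657) reached a signal of 15.7 and a −log10 p of 627, the highest −log10 p of the family and at percentile 95.1 of the list. It lies 141 kb downstream of the principal TSS, inside the antisense transcript Gm29114, so its position does not assign it to one of the 2 genes. The upstream peak at −17.9 kb (chr1:69703574-69704161) had a signal of 13.4 but a −log10 p of only 53.7, so the 2 measures placed it at percentiles 50.7 and 21.6. The other 16 peaks had signals from 3.90 to 9.32.

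No peak of either list covered the principal TSS of Ikzf2. The peak over the annotated 5′ end (chr1:69686924-69687997), with its summit 1.43 kb upstream of the principal TSS, had a signal of 4.59 and a −log10 p of 87.5. A second promoter peak (chr1:69682979-69683465, signal 5.52, −log10 p 131) had its summit in the coding sequence of exon 3, 862 bp from an alternative start. A further pair of peaks, 148 and 153 kb from the principal TSS, had summits in the 3′ UTR of exon 8, with signals of 5.97 and 6.75, and the second was the farthest from the start. Intron 3, which spans 105 kb and 72.4% of the intron length, held 9 of the 18 peaks and 30 of the 45 in the pseudoreplicated list. Within it, a stretch of 48.6 kb between neighbouring summits had no peak in the main list and 14 in the longer one.

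Eos, encoded by Ikzf4 (chr10:128630843-128645991, minus strand), is the shortest gene of the family at 15.1 kb, and its start was open but weak. The peak over its TSS (chr10:128645490-128646042) had a signal of 7.59 and a −log10 p of 70.8, with the summit in the 5′ UTR, and a second peak 591 bp upstream (chr10:128646120-128646734) had 6.94 and 55.7. Both also lie within 1 kb of the start of the divergent noncoding gene Gm26876, whose 5′ end is 107 bp away. The stronger site was in intron 5 (chr10:128636645-128637547), with a signal of 17.6 and a −log10 p of 471, 8.77 kb into the gene. A peak in intron 2 had 6.89 and 69.0.

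The strongest peak of the Ikzf4 locus, and of the family, belongs by position to another gene. It lies at chr10:128626354-128627209, with a signal of 25.5 and a −log10 p of 559, and its summit is 85 bp from the start of Rps26, which encodes a ribosomal protein. The farthest peak, 32.7 kb downstream of the Ikzf4 TSS (chr10:128612690-128613534), had 16.4 and 119, and 65.5% of its central 200 bp is repeat-masked, the only family peak above 50%.

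Ikaros, encoded by Ikzf1 (chr11:11685003-11772926, plus strand), had a CpG-rich but weakly open start. The peak over the principal TSS (chr11:11685320-11686392) had a signal of 3.91 and a −log10 p of 47.0, percentiles 2.10 and 16.8 of the list, and its summit was also 254 bp from the start of the noncoding gene Gm11999. The annotated 5′ end was covered in the pseudoreplicated list alone, with a signal of 2.84. A peak in intron 1 (chr11:11689919-11690893), 3.89 kb beyond the principal TSS, was stronger at 6.47 and 167, and it covers the second RefSeq start, whose CpG-poor sequence is given above.

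The stronger Ikzf1 sites lay away from the start. The strongest peak within the gene was in intron 7 (chr11:11766061-11766524), with a signal of 17.7 and a −log10 p of 344. The peak of highest signal in the locus, also the farthest from the TSS at 102 kb, lies downstream (chr11:11788438-11789029) at 19.9 and 177, in an exon of a noncoding transcript of Fignl1. It held a CTCF match, and so did 1 of the intron 3 peaks. The upstream peak at −7.07 kb (chr11:11678672-11679332), which lies within Gm11999, had 14.9 and 105. Intron 3 held 7 of the 14 peaks, with signals from 3.63 to 13.7, and spans 49.5% of the intron length.

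Aiolos, encoded by Ikzf3 (chr11:98464902-98546031, minus strand), had no peak at its principal start in the main list. The pseudoreplicated list had one there (chr11:98545640-98546172) with a signal of 3.47, a −log10 p of 24.8 and a −log10 IDR of 0.932, below the lowest value of the main list, 1.30. The peaks near other annotated starts of the gene lie deep inside it. One (chr11:98477190-98477855, 7.12 and 40.5) covers the start of the processed transcript Ikzf3-204 in intron 6, and the other (chr11:98487567-98488101, 8.17 and 43.4) comes within 1 kb of that of Ikzf3-202 with its edge but not its summit. Intron 1, of 27.0 kb, held no peak of the main list, and 37.5 kb between neighbouring summits around the principal TSS were free of such peaks.

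Several other Ikzf3 sites were stronger. The strongest was in intron 7 (chr11:98469807-98470679), with a signal of 18.1 and a −log10 p of 280, and an upstream peak at −17.4 kb (chr11:98563030-98563597) had 17.5 and 79.5. Downstream of the gene, the peak at chr11:98463940-98464937 had 16.3 and 196, and the farthest from the TSS, at 87.9 kb (chr11:98457128-98458440), had 13.5 and 187. A broad peak of 5 summits at −4.77 kb (chr11:98549946-98551496) had 9.15 and 227 and lies within 1 kb of the start of Zpbp2. Intron 3 held 4 of the 11 peaks, at signals from 8.10 to 14.4.

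Pegasus, encoded by Ikzf5 (chr7:131388652-131410521, minus strand), had the strongest start of the family and no distal peak. The peak over its TSS (chr7:131409999-131410928) had a signal of 23.1 and a −log10 p of 455. It is shared with Acadsb, an acyl-CoA dehydrogenase gene that is transcribed the other way from a start 80 bp away, and its summit lies in the 5′ UTR of Acadsb. The other peak (chr7:131370645-131371715, 17.7 and 248), 39.4 kb downstream of the Ikzf5 TSS, has its summit 16 bp from the start of Pstk. None of the 3 introns held a peak in either list, and the annotated model of Fgfr2 spans the whole locus.

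**Figure D3:**
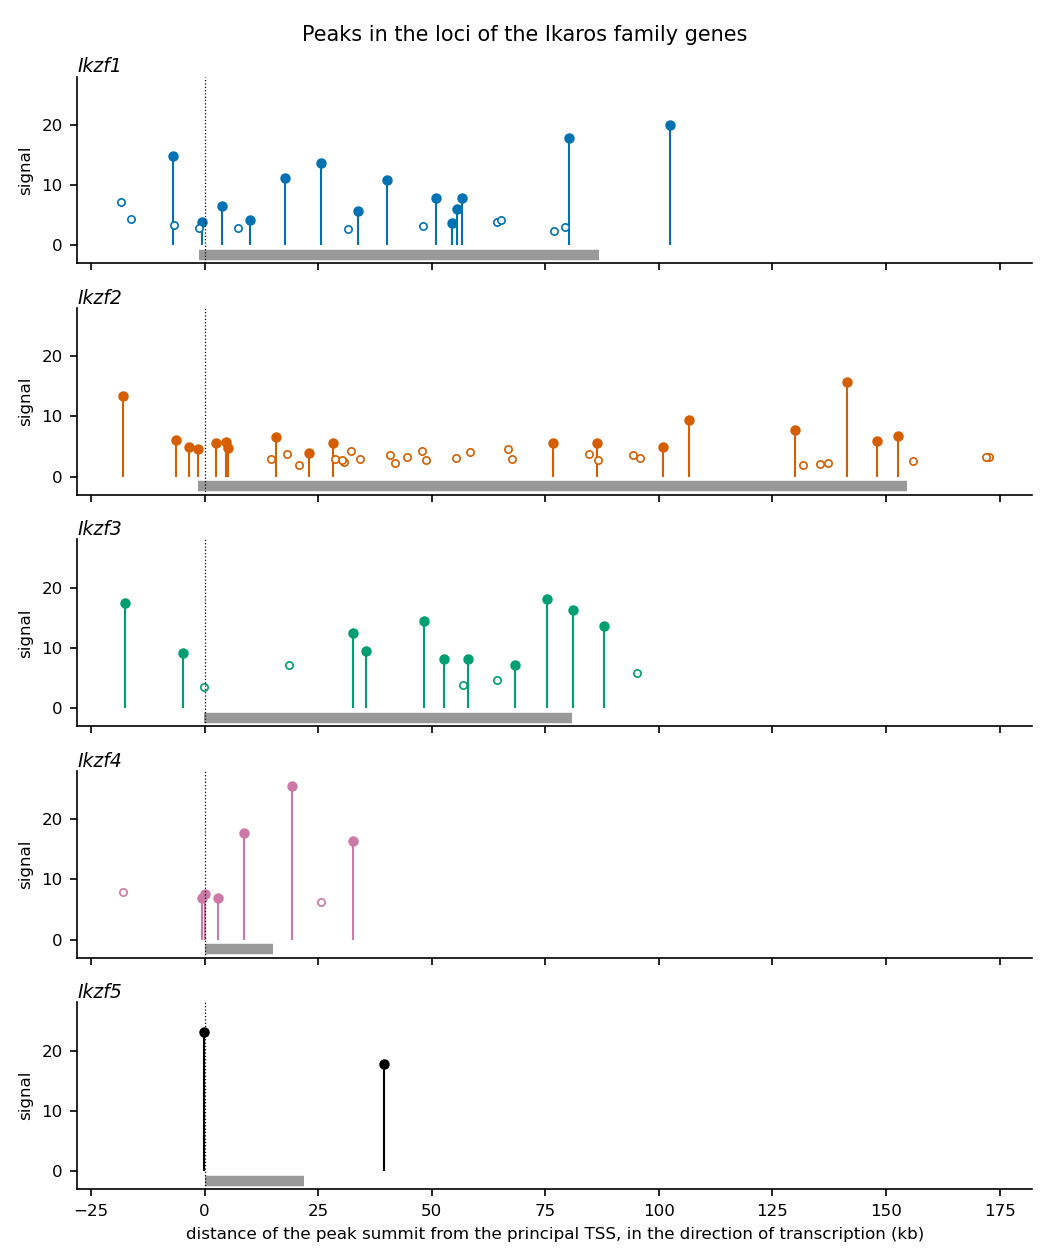
Signal (y axis) of each peak in the 5 loci by the distance of its summit from the principal TSS in the direction of transcription (x axis, kb). Filled points with stems are peaks of the main list, open points are peaks of the pseudoreplicated list alone, the dotted line is the TSS and the grey bar the gene; the tallest points of Ikzf1, Ikzf2, Ikzf3 and Ikzf4 stand away from the line, and that of Ikzf5 stands on it.

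Across the family, whether a start counted as open depended on which start was asked about. A peak of the main list came within 1 kb of some annotated TSS at 5 of 5 members, against 52.6% of coding genes. It covered the principal TSS at 3 (Ikzf1, Ikzf4 and Ikzf5), against 45.8%, and the 5′ end of the gene at 3 (Ikzf2, Ikzf4 and Ikzf5), against 44.6%. In the pseudoreplicated list the counts were 5 of 5 within 1 kb (57.7% of coding genes), 4 of 5 over the principal TSS (49.3%) and 5 of 5 over the 5′ end (48%). With 5 genes, none of these counts separates the family from the background.

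Promoters made up a smaller share of the family peaks than of all peaks, and introns a larger one. Here a peak was classed by its summit rather than by overlap. Of the 51 family peaks, 12 had a summit within 1 kb of any TSS (23.5%, exact Clopper-Pearson 95% interval 12.8 to 37.5, against 39.6% of all peaks), 28 were intronic (54.9%, 40.3 to 68.9, against 32.6%), 7 intergenic (13.7% against 24.5%) and 4 exonic (7.84% against 3.33%). These intervals cover counting error only, peaks of a locus are not independent, and a rule based on gene bodies favours introns by construction. Of these 12, 7 lay within 1 kb of a start of the family gene, 4 of these also of another gene's, and 5 only of another gene's: Gm12000, Gm28112, Zpbp2, Rps26 and Pstk. Intron 3 of the principal transcript held 20 of the 43 peaks at Ikzf1, Ikzf2 and Ikzf3, but it is also the longest intron of Ikzf1 and Ikzf2 and close to the longest of Ikzf3. Per 10 kb it held 1.73 peaks in Ikzf1, 0.856 in Ikzf2 and 1.52 in Ikzf3, and in Ikzf2 the shorter intron 6 with its single peak came to 1.61.

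The main list was filtered on the IDR of 2 inputs, so the closeness of the inputs at its peaks was set by that filter and is given as a description. At the 51 family peaks the −log10 p was higher in the first input at 28, and the ratio of the first to the second ran from 0.625 to 1.78 with a median of 1.03. At the 45 family peaks of the pseudoreplicated list alone it was higher in the first input at 18, and the ratio ran from 0.171 to 2.58 with a median of 0.870. The −log10 IDR ran from 1.31 at the Ikzf2 intron 3 peak beside Gm28112 to 3.95 at the Ikzf2 intron 6 peak. What these inputs were, the technical replicates or parts of the pooled reads, is not stated. Of the 96 pseudoreplicated peaks, 51 (53.1%) overlapped a peak of the main list, against 58.7% of all pseudoreplicated peaks. The 45 others comprised 27 at Ikzf2, 11 at Ikzf1, 5 at Ikzf3 and 2 at Ikzf4, with median signals of 2.91, 3.22, 4.66 and 7.09.

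**Figure D4:**
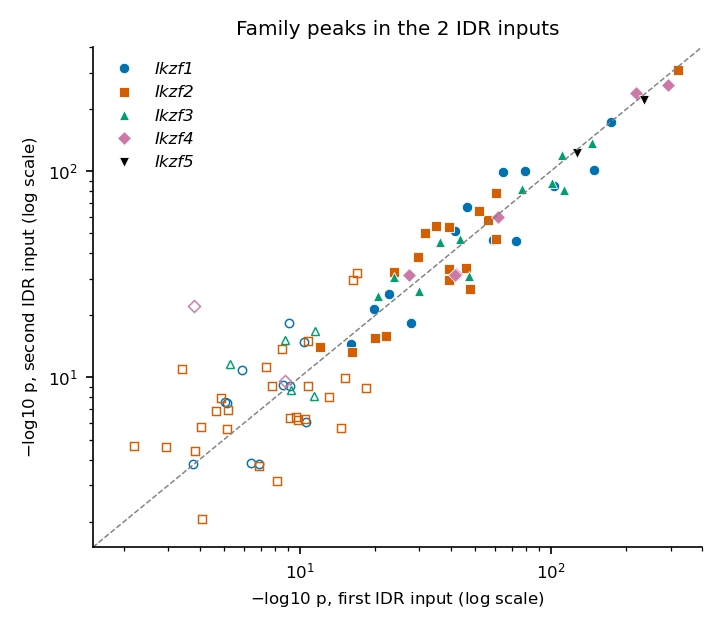
The −log10 p of each family peak in the first (x axis, log scale) and the second IDR input (y axis, log scale), with the line of equality dashed. The 51 filled points, peaks of the main list and so selected on these inputs, have ratios from 0.625 to 1.78, and the 45 open points, peaks of the pseudoreplicated list alone, spread from 0.171 to 2.58.

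Matches to 14 sequence motifs were counted over both strands of the 200 bp around each summit, and a peak could hold several, also overlapping, matches. The Ikaros motif TGGGAA was found at 9 of the 51 family peaks (17.6%, 95% interval 8.401 to 30.9) against 13% of all peaks. By locus these were 4 at Ikzf1, 2 at Ikzf2, 2 at Ikzf3 and 1 at Ikzf4. Some lie at other genes: the Ikzf4 one at the Rps26 start, 1 at Ikzf3 by the Zpbp2 start and 1 at Ikzf1 in a Fignl1 exon. The E-box (CAGGTG or CAGCTG), bound by basic helix-loop-helix and related factors, was the commonest, at 14 peaks (27.5%) against 26%, and 6 of the 14 were at Ikzf3. NFAT (TGGAAA), read by a factor activated through the T cell receptor, was found at 7 (13.7%) against 14.3%, and RUNX (TGTGGTT), read by Runx1 and its relatives, at 6 (11.8%) against 9.07%. These shares lay near those of all peaks.

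The motif of GATA factors, AGATAA, was found at 7 peaks (13.7%) against 7.75%, and 4 of them were at Ikzf3. NF-kB (GGGANTTCC or GGGACTTTC) was found at 3 against 3.02%, STAT (TTCCNGGAA), read by factors downstream of cytokine receptors, at 2 against 0.979%, and 1 of these was the peak over the Ikzf4 TSS. ETS (CCGGAAGT or CAGGAAGT) was found at 3 (5.88%) against 13.1%, AP-1 (TGANTCA) at 3 against 9.62%, CTCF (CNAGGGGGC or CNAGGTGGC) at 2 against 6.1% and forkhead (TGTTTAC) at 1 against 3.08%. KLF/SP (CCCCGCCC), a promoter motif, was found at 2 (3.92%) against 11.6%, and at 1 of 39 distal family peaks against 3.22% of distal peaks. NRF1 (GCGCATGCG) was at none of the 51 peaks against 1.04%, and at none of the 39 distal ones against 0.234%. TCF/LEF (CTTTGAT) was at none against 3.46%.

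Each motif's share over all peaks lay inside the interval of the family share, which for 51 peaks is wide. No motif was held by 14 family peaks, against 25.9% of all. The median G and C content of the windows was 47.5%, against 52% of all peaks, and 46.5% against 48.5% over distal peaks.

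**Figure D5:**
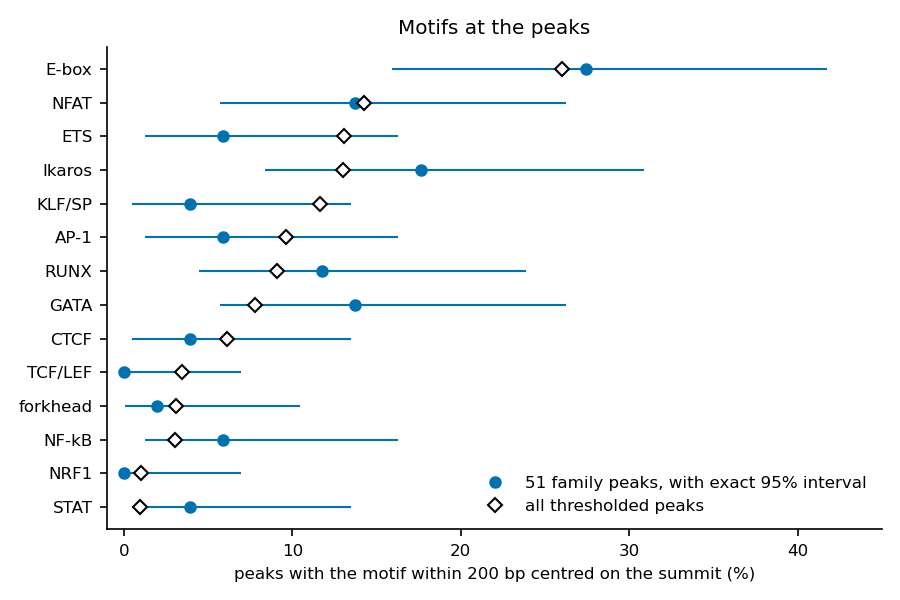
Share of peaks with each of 14 motifs (x axis, percent) for the 51 family peaks (filled, with the exact Clopper-Pearson 95% interval) and for all 34610 peaks of the main list (open). The open marks lie within the intervals of the family, which are widest for the E-box and Ikaros motifs.

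Genes that work with the family were mostly open at their promoters. Of 17 genes of NuRD and other corepressors, through which Ikaros proteins repress genes, 15 had a promoter peak. This is 88.2% (95% interval 63.6 to 98.5), against 52.6% of coding genes, and the 17 loci had a median of 4 peaks. Both partner lists were chosen with earlier results of these data known. The interval covers counting error only and is no test against coding genes. The highest signals were at Sin3b (29.0), a scaffold of the Sin3 histone deacetylase complex, and at the NuRD subunits Gatad2b (24.2) and Gatad2a (22.5). Chd4, the NuRD remodeller, had 7.86, and Chd3 and Ctbp2 had no promoter peak in either list. Drugs such as lenalidomide degrade Ikaros and Aiolos through the cereblon ubiquitin ligase in human cells, whereas mouse cereblon does not respond in that way. All 5 genes of this ligase had a promoter peak. This share has a 95% interval of 47.8 to 100%, which includes the 52.6% of coding genes. A peak covered the principal TSS at 4 of the 5. The highest signals were at the substrate receptor Crbn (21.7), the adaptor Ddb1 (19.9) and the RING protein Rbx1 (16.8). Over the partner genes with a promoter peak the signals ran from 4.73 (Mta3) to 29.0 in the first list, with a median of 16.0, and from 13.5 to 21.7 in the second, with a median of 16.8. The family genes themselves were taken by the same rule, overlap with 1 kb on either side of a GENCODE start. Their highest signals were 3.91 at Ikzf1, 5.52 at Ikzf2, 7.59 at Ikzf4, 8.17 at Ikzf3 and 23.1 at Ikzf5. The Ikzf1 peak over the second RefSeq start, 3732 bp from the nearest GENCODE start of the gene, had 6.47. At Ikzf3 only the edge of the 8.17 peak came within 1 kb of an internal start, and the peak covering another internal start had 7.12. No peak of the main list covered the principal TSS of Ikzf3.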

How the data were processed

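ATAC-seq peaks of 1 pool of 2 technical replicates were analysed. Per the file listings, the authors' 3 deposited lists on mm10 came from an alignment shared by both libraries. Aligner, peak caller and any shift of read ends: not given in the sources used here. The deposited signal per peak is the authors' enrichment value, with its reference not stated, and the deposited −log10 p is theirs too. The ranked list holds the authors' IDR score as −log10. The lists hold no read counts, so the depth is unknown.

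Lines sharing an interval were reduced to the summit of highest signal, giving 34610 peaks. Loci, TSSs and introns came from GENCODE M21 on GRCm38.p6, the same assembly as mm10, and coordinates are 1-based. The principal transcript was the one with the best APPRIS level in the annotation. Ties went to a CCDS tag, then protein-coding type, then the longest total exon length, then the identifier. A gene had a promoter peak where a peak overlapped 1 kb on either side of any of its TSSs, while peaks were classed as promoter or distal by whether the summit lay within 1 kb of any TSS. With 1 biological replicate no test was run, and peaks and genes are not replicates. Motifs were plain letter matches. The text names the members, per member the strongest peak, the peaks at its starts and the farthest, and from each partner list the 3 highest and those without a promoter peak. Other named peaks and Chd4 were chosen after their values were seen. The members and lists were chosen with earlier results of these data known. Locus counting was tested on simulated data (200 of 200 counts and 200 of 200 TSS calls recovered, 14 of 14 motifs). Python 3.11.15, pandas 2.3.3, scipy 1.17.1 and pysam 0.24.0 were used. Alternatives changed the list, peak filter, flank, windows, TSS set, overlap and scaling.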

Additional observations from a re-analysis of the deposited data

How the results depend on the processing

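Under 14 alternative settings, 109 values were recomputed for 32 results, and the pooled lists allow no leave-one-out. No paired analysis was possible because there is 1 group. In the pseudoreplicated list Ikzf1 had 25 peaks and Ikzf2 45, and the percentiles of Ikzf2, Ikzf3, Ikzf4 and Ikzf5 were 99.94, 98.12, 88.74 and 40.52. Counting peaks with at least the median signal gave 4, 2, 5 and 3 peaks at Ikzf1 to Ikzf4 (family median 3). With at least the median −log10 p there were 6, 2, 5 and 3 (family median 3), and the percentiles of Ikzf1 to Ikzf5 were 98.89, 72.04, 97.47, 86.51 and 72.04. These filters keep fewer peaks by construction. Counting every summit gave 26, 31, 22, 12 and 5 (family median 22). A flank of 5 kb left Ikzf5 with 1 peak. Per 100 kb of locus the percentiles were 95.16, 91.69, 91.4, 95.04 and 57.69. Counting distal peaks only, an alternative chosen after seeing the data, left 3 at Ikzf4 and 0 at Ikzf5, with percentiles of 98.88, 89.23 and 27.46 for Ikzf3, Ikzf4 and Ikzf5. The highest promoter signal of Ikzf2 was 4.59 with a window of 500 bp or with the 5′ end only, and that of Ikzf3 was 7.12 with 500 bp. No value came out for Ikzf2 with the principal TSS only, or for Ikzf3 with either the principal TSS or the 5′ end only. In 400 bp the motif shares of Ikaros, E-box and NFAT were 41.2%, 45.1% and 29.4%, against 27.98%, 42.7% and 28.7% of all peaks. The unknown depth limits which weak peaks could be called.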
